A study of Mus musculus with 21 samples.

Results

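The transcripts of 7 genes of the phagocyte superoxide system were followed: Cybb, Cyba, Ncf1, Ncf4 and Rac2, which encode components of the NADPH oxidase, and Sod1 and Sod2, which encode superoxide dismutases. They were chosen by symbol, through the Ensembl ID of each table entry, and make up 7 of the 23250 genes measured. RNA was sequenced from mouse bone-marrow-derived macrophages of C57BL/6J background, grown for 7 days with a supernatant containing GM-CSF, a growth factor for myeloid precursors. All cells lacked the mannose receptor, a surface lectin encoded by Mrc1. One group was taken untreated at 0 h, and the others received FcMR or an isotype control for 4, 12 or 24 h. FcMR is a recombinant protein in which the extracellular region of the mannose receptor is joined to the Fc region of human IgG1. The 7 groups (untreated, and FcMR and isotype at each of 3 times) held 3 libraries each, 21 in all. The untreated group exists at 0 h only, and no label says whether the libraries of a group came from separate mice or cultures. P-values therefore measure the spread between these libraries, which may be technical.

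The phagocyte NADPH oxidase carries electrons from NADPH across a membrane to oxygen and so makes superoxide. Cybb (gp91phox, the catalytic subunit) and Cyba (p22phox, its partner) sit in the membrane, while Ncf1 (p47phox, the organizer), Ncf4 (p40phox) and the GTPase Rac2 join them from the cytosol on activation. Superoxide dismutases turn superoxide into hydrogen peroxide, Sod1 in the cytosol and Sod2 in the mitochondrial matrix, and Sod2 is a textbook target of inflammatory signalling through NF-kappaB.

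In the fit of all libraries, FcMR raised 3 of the 7 transcripts over the isotype control. At 4, 12 and 24 h, 2, 3 and 3 of them were called, all higher, while 17.7%, 16.1% and 20.9% of the 13468 genes tested were called and 8.62%, 8.61% and 11.4% were called higher. Sod2 was higher at 4, 12 and 24 h, by 1.58-, 2.22- and 4.55-fold. Ncf1 was higher at all 3 times too, by 1.37-, 1.58- and 1.59-fold. Cybb was higher by 1.34-fold at 12 h and by 1.68-fold at 24 h. Cyba, Ncf4, Rac2 and Sod1 did not pass the test against isotype at any time in the fit of all libraries. Under some other settings, given below, Rac2 was called higher at 4 and 12 h, and Cyba and Ncf4 at 4 h. The 12 h call of Cybb was lost without FcMR replicate 1 or any 1 isotype replicate. No member was called lower with FcMR than with isotype.

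The sequence before the annotated start is shown for the 3 transcripts called higher with FcMR in the fit of all libraries. Each is the 250 bases upstream of the RefSeq start (build GRCm38.p6), read on the gene's strand, 5′ to 3′. Sod2 is at chr17:13007589-13007838 on the plus strand, Cybb at chrX:9469325-9469574 on the minus strand and Ncf1 at chr5:134229626-134229875 on the minus strand. Capitals mark every match, on either strand, to 1 of 6 motifs: AP-1 (TGANTCA), a PU.1 core (GAGGAA), the interferon-stimulated response element (GAAA, any 2 bases, GAAA), the kappa-B consensus, the GC box (GGGCGG) and the antioxidant response element (TGACNNNGC).
Sod2: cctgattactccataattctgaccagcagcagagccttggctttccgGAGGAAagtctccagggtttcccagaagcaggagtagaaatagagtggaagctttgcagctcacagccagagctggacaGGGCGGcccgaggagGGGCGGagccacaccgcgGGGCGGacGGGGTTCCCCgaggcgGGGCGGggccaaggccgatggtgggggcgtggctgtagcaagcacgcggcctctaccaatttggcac
Cybb: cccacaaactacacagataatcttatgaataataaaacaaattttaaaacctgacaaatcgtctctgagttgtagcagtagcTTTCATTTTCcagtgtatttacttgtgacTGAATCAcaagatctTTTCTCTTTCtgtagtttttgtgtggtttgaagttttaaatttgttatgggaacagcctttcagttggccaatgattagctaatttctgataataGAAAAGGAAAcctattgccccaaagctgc
Ncf1: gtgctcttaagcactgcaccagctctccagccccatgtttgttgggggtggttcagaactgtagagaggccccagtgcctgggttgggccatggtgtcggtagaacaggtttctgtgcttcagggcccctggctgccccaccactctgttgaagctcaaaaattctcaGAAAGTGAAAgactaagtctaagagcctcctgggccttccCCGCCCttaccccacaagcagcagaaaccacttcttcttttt
The Sod2 sequence held a kappa-B match 83 to 74 bases before the start, 1 PU.1 core match and 4 GC boxes. The kappa-B consensus matched there on both strands, and this was counted as 1 place. The Cybb sequence held 3 interferon-stimulated response element matches, 168 to 159, 124 to 115 and 29 to 20 bases before the start, and 1 AP-1 match. The Ncf1 sequence held 1 interferon-stimulated response element match, 82 to 73 bases before the start, and 1 GC box. Among 27025 RefSeq promoters of the same length, a kappa-B match occurred in 7.01%, a PU.1 core match in 23.1%, an interferon-stimulated response element match in 3.04%, an AP-1 match in 6.87%, a GC box in 32.9% and an antioxidant response element match in 10.1%. Sequence was found for 5 of the 7 members, Ncf4 and Rac2 not among them. Of the other two, Cyba held 2 GC boxes, and Sod1 held 4, in overlapping pairs, and 1 antioxidant response element match. These matches describe the letters only. No binding or chromatin was measured here.

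Levels are given as CPM, counts scaled to a common library size, after TMM scaling, a normalization of libraries to a shared composition. Library totals ran from 5532225 to 66729533 counts, and every member passed the filter on low counts, with no fewer than 334 counts in any library. Mrc1 had 0 to 11 counts in the 21 libraries. The 7 macrophage markers summed to 19000 to 37500 CPM per library, and the 6 dendritic cell markers to 2150 to 4200 CPM. Most of the macrophage sum was Lyz2, whose TMM-scaled group means ran from 17926 CPM (FcMR 12 h) to 28184 CPM (isotype 24 h). The sums of the 2 lists therefore do not compare the amounts of the 2 cell types. The 9 neutrophil markers summed to 1600 to 1800 CPM in untreated cells and to 213 to 254 CPM with isotype for 24 h, where all 9 were called lower than untreated. Of all genes, 42.2% were called in that comparison, in either direction. Lymphocyte markers summed to 2.4 to 7.17 CPM and stromal markers to 0.675 to 4.53 CPM. Markers also differed between FcMR and isotype, by the log2 fold changes given here. Over all genes, 17.7%, 16.1% and 20.9% were called between FcMR and isotype at 4, 12 and 24 h. At 4 h Fcgr1 (0.78), Mertk (0.67) and Ccr7 (0.55) were called higher and Csf1r (-0.35) lower. At 12 h Adgre1 (0.72), Zbtb46 (0.38), Csf3r (0.87), S100a8 (0.53) and the stromal marker Dcn (2.03) were called higher. Itgam (-0.67) and Flt3 (-0.57) were called lower then. At 24 h, 1 macrophage marker was called higher (Adgre1, 0.85) and 4 lower (Fcgr1, -1.16, Itgam, -1.01, Mertk, -0.63, and Lyz2, -0.38). Of the dendritic cell markers Ccr7 (0.77) and Zbtb46 (0.69) were higher and Itgax (-0.22) lower, and of the neutrophil markers S100a8 (0.69) was higher and Ltf (-2.27) and Ngp (-0.91) lower. Dcn was higher as well (4.69), at low means of 0.0981 CPM with isotype and 2.97 CPM with FcMR. These marker values stand beside every FcMR effect at the same time, and their part in it was not tested. In bulk RNA, fewer cells of a type and less RNA per cell cannot be told apart.

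Libraries differed in how they covered transcripts of high and low GC content. A GC tilt was computed for each, as the mean log2 deviation of the most GC-rich genes (at least 57.7% GC) minus that of the most GC-poor (at most 42%), with the members left out. It ran from -1.59 to 0.834. The tilts were -0.839, -1.59 and 0.631 in the isotype 4 h libraries, -0.718, 0.719 and 0.816 with FcMR at 12 h, and -0.333, -1.25 and 0.428 with FcMR at 24 h, so these groups were uneven within themselves. The isotype 12 h libraries lay between 0.595 and 0.834, the isotype 24 h libraries between -0.0699 and -0.0249, the FcMR 4 h libraries between -0.562 and -0.217 and the untreated libraries between 0.0157 and 0.788. The library numbers in the titles of FcMR 12 h replicate 1 and isotype 4 h replicate 3 stand in each other's place, and each has a tilt unlike that of the other two in its labelled group. An exchange of their labels would change which treatment their values stand for. In the neutrophil markers Ly6g and Csf3r and the macrophage marker Adgre1, each of the pair stood with the group its title gives. Isotype 4 h libraries held 4.69 to 5.17, 14.3 to 18.9 and 231 to 322 CPM of these. FcMR 12 h libraries held 0.262 to 0.881, 36.6 to 43.0 and 871 to 1127 CPM. An exchange was not tested otherwise. Because of the tilt of the pair, results against isotype at 4 and 12 h are also given without both.

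Cybb was the member with the lowest GC content in its transcripts, 42.4%, against 50.4% to 59.3% for the other 6 (the median over a gene's annotated transcripts). Within groups, the deviation of Cybb from its group mean ran opposite to the GC tilt over the 21 libraries (Pearson r = -0.962, adjusted exact permutation p = 0.000688 within groups, Spearman rho = -0.891, adjusted p = 0.000712). Cyba (59.3% GC) ran with the tilt (r = 0.979, adjusted p = 0.000632, rho = 0.936, adjusted p = 0.000691). The same sign was found for Ncf4 (r = 0.96, adjusted p = 0.000375, rho = 0.866, adjusted p = 0.000691), Rac2 (r = 0.917, adjusted p = 0.00223, rho = 0.773, adjusted p = 0.00618) and Ncf1 (r = 0.915, adjusted p = 0.000632, rho = 0.894, adjusted p = 0.000691). Sod1 followed it less closely (r = 0.602, adjusted p = 0.0361, rho = 0.775, adjusted p = 0.00281). Sod2 did not pass the test (r = 0.236, adjusted p = 0.278, rho = 0.296, adjusted p = 0.234). These are exact two-sided tests over all within-group orders, adjusted over the 7 members. Without the 2 libraries farthest from the median tilt deviation (isotype 4 h replicates 2 and 3), r was -0.962 for Cybb, 0.969 for Cyba, 0.946 for Ncf4, 0.904 for Rac2, 0.851 for Ncf1, 0.616 for Sod1 and 0.0452 for Sod2. Values against isotype with a correction for GC content are therefore given for each member, and those against untreated where the correction changes the call.

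**Figure D1:**
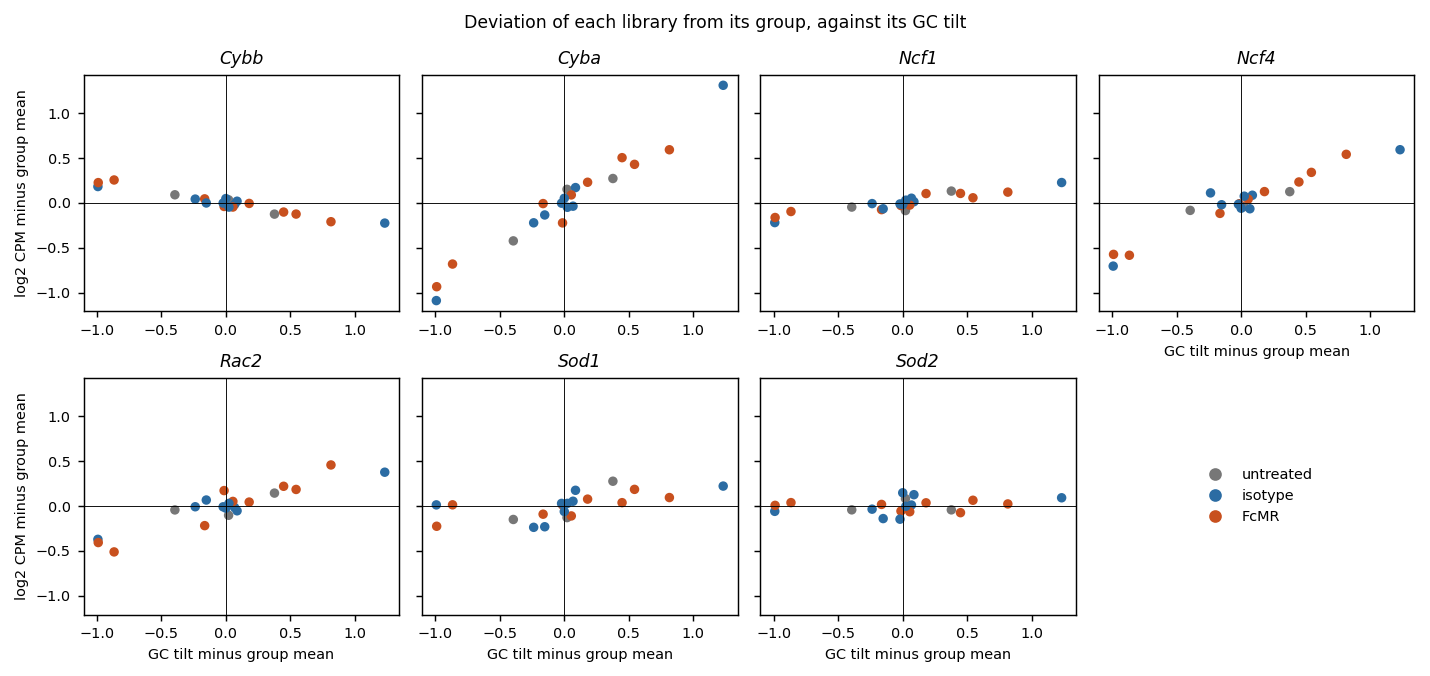
Deviation of each member from its group mean (log2 CPM, vertical axis) against the deviation of the library's GC tilt from its group mean (horizontal axis), with 1 panel per member and 1 point per library. Cybb falls along the axis (r = -0.962), Cyba, Ncf1, Ncf4 and Rac2 rise, and Sod2 shows no clear slope (r = 0.236).

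Cybb (ENSMUSG00000015340.10, chrX:9435252-9487771, minus strand, GRCm38) was lowest in untreated cells, at 900, 1045 and 1005 CPM. With isotype it measured 2965, 3267 and 2464 CPM at 4 h, 3333, 3293 and 3379 CPM at 12 h, and 3073, 2979 and 3181 CPM at 24 h. With FcMR it measured 3476, 3558 and 3686 CPM at 4 h, 5178, 4125 and 4061 CPM at 12 h, and 4957, 6109 and 4426 CPM at 24 h. Every treated library was above every untreated one, and at each time the lowest FcMR library was above the highest isotype library. In the order of group means, from untreated (983 ± 74.9, SD, n = 3) to FcMR 24 h (5164 ± 860), only the neighbours isotype 4 h and isotype 24 h, and FcMR 12 h and FcMR 24 h, overlapped in range.

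The transcript of the catalytic subunit was thus above untreated with either protein, and higher with FcMR than with isotype. Relative to isotype, Cybb differed at 4 h by a log2 fold change of 0.30 ± 0.12 (SE), with an edgeR quasi-likelihood Benjamini-Hochberg adjusted p of 0.0959, 0.42 ± 0.12 at 12 h (adjusted p = 0.0226) and 0.75 ± 0.12 at 24 h (adjusted p = 0.000179). With the GC correction the values were 0.47, 0.32 and 0.65, all called (adjusted p = 1.29e-07, 1.36e-05 and 1.1e-09). The 12 h call was lost without FcMR replicate 1 (0.29, adjusted p = 0.163) and without isotype replicate 1, 2 or 3 (0.41, 0.41 and 0.43, adjusted p = 0.0839, 0.0868 and 0.066). It was also lost without both libraries out of title order (0.29, adjusted p = 0.0671) and with only the groups compared (0.42, adjusted p = 0.0572). A call at 4 h was gained without isotype replicate 2 (0.43, adjusted p = 0.0341), with DESeq2 (0.36, adjusted p = 0.0417), without the expression filter (0.42, adjusted p = 0.0484) and with limma on the deposited normalized values (0.38, adjusted p = 0.042), but not without both libraries out of title order (0.20, adjusted p = 0.17).

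Against untreated cells, isotype-treated cells had higher Cybb by 2.95-fold at 4 h, 3.39-fold at 12 h and 3.13-fold at 24 h (adjusted p = 1.78e-08, 2.97e-09 and 7.36e-09). With FcMR the difference from untreated was 3.63-, 4.53- and 5.25-fold (adjusted p = 8.53e-10, 1.21e-10 and 4.54e-11). Both sets of comparisons share the 3 untreated libraries, and since these were taken at 0 h, time in culture and treatment cannot be told apart in them. Cybb is also abundant in neutrophils. Of their 9 markers, 6, 8 and 9 were called lower than untreated with isotype at 4, 12 and 24 h, and 5, 8 and 9 with FcMR. Over all genes, 35.6%, 41.6% and 42.2% were called with isotype and 48.2%, 48.1% and 51.4% with FcMR, in either direction. Csf3r was called higher with FcMR at 12 h (0.63 on the log2 scale). The part of neutrophils in the Cybb result was not tested.

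Cyba (ENSMUSG00000006519.11, chr8:122424776-122432930, minus strand), the membrane partner that stabilizes gp91phox, varied widely within groups. Untreated libraries held 737, 456 and 678 CPM. At 4 h isotype libraries held 343, 188 and 991 CPM and FcMR libraries 468, 641 and 543 CPM. At 12 h the values were 944, 1011 and 1167 CPM with isotype and 388, 1052 and 999 CPM with FcMR, and at 24 h they were 551, 533 and 572 CPM with isotype and 444, 260 and 629 CPM with FcMR. The isotype 4 h library at 991 CPM and the FcMR 12 h library at 388 CPM, which stood apart from the other two of their groups, are those out of title order. All neighbouring groups in the order of means overlapped.

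The log2 fold changes of Cyba over isotype were 0.12 ± 0.46 at 4 h, -0.36 ± 0.46 at 12 h and -0.32 ± 0.46 at 24 h (adjusted p = 0.907, 0.716 and 0.706). Those standard errors are about as large as the differences or larger, so a change of modest size was not detectable. With the GC correction the values were 0.32, -0.14 and -0.12, and none was called. Without both libraries out of title order, the 4 h difference was 1.06 and was called (adjusted p = 0.0155), and the 12 h difference was -0.02 (adjusted p = 0.984). Cyba in isotype-treated cells at 4 h was then called lower than in untreated cells as well (-1.23, adjusted p = 0.00313, against -0.30, adjusted p = 0.647, with all libraries).

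At 12 h, Cyba with isotype was above every untreated library, by 0.74 ± 0.46 on the log2 scale, and was not called (adjusted p = 0.216). It was called with the GC correction (0.50, adjusted p = 0.0108), without both libraries out of title order (0.77, adjusted p = 0.0215) and with only the groups compared (0.73, adjusted p = 0.00338). With FcMR, Cyba differed from untreated by -0.18 at 4 h and 0.38 at 12 h (adjusted p = 0.777 and 0.525). The 4 h value was called, with the other sign, under the GC correction (0.39, adjusted p = 0.0367), and the 12 h value was called without both libraries (0.74, adjusted p = 0.0374).

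Ncf1 (ENSMUSG00000015950.13, chr5:134220053-134229625, minus strand) encodes the organizer whose phosphorylation starts oxidase assembly. It measured 372, 329 and 320 CPM in untreated cells. With isotype it was 406, 351 and 478 CPM at 4 h, 336, 365 and 355 CPM at 12 h, and 347, 357 and 345 CPM at 24 h. With FcMR it was 552, 605 and 534 CPM at 4 h, 496, 597 and 578 CPM at 12 h, and 544, 518 and 601 CPM at 24 h. The 9 FcMR libraries, between 496 and 605 CPM, all lay above the 12 others, which reached 478 CPM.

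The FcMR libraries of Ncf1 were thus apart from the rest at every time. Over isotype the log2 fold change was 0.45, 0.66 and 0.67 in time order, each ± 0.10 (SE), and the edgeR adjusted p was 0.00495, 0.000175 and 0.000126. The GC-corrected values were 0.44, 0.75 and 0.75, and all 3 calls held without any single library. Without both libraries out of title order, Ncf1 was at 0.58 at 4 h and 0.74 at 12 h (adjusted p = 0.000271 and 1.63e-05). The 4 h call was lost when only the 2 groups compared entered the fit (0.45, adjusted p = 0.0883). FcMR-treated cells exceeded untreated cells by 1.65-, 1.64- and 1.63-fold at the 3 times (adjusted p = 1.54e-05, 1.84e-05 and 2.15e-05). Isotype against untreated was called at 4 h only (0.27, adjusted p = 0.0499), with overlapping groups. That call was lost without untreated replicate 2 or 3 (0.25 and 0.23, adjusted p = 0.132 and 0.165) and without isotype 4 h replicate 1 or 3 (0.27 and 0.15, adjusted p = 0.1 and 0.224). It was lost without both libraries out of title order too (0.16, adjusted p = 0.171), as with the replicate block (0.27, adjusted p = 0.0596), while the GC correction gave 0.44 (adjusted p = 2.09e-06). Exons of Ncf1 overlap those of Gtf2ird2, which is read from the other strand, and the labels do not say that counting was strand-aware. Gtf2ird2 held 5.99 to 15.7 CPM over the 21 libraries.

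**Figure D2:**
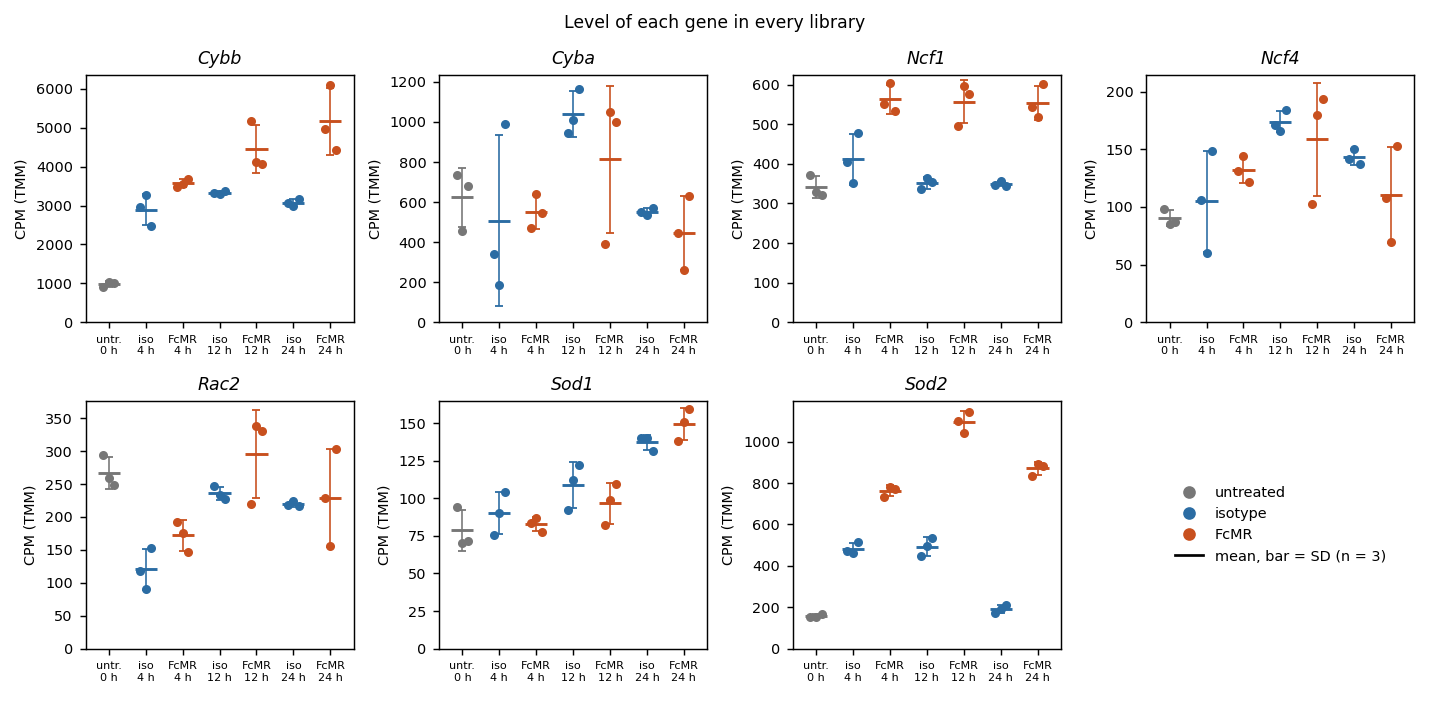
Level of each member in CPM (vertical axis, linear from 0, a panel per gene) in the 7 groups (horizontal axis), with 1 point per library and the group mean ± SD as line and bar. The FcMR libraries of Sod2, Ncf1 and Cybb lie above the isotype libraries of the same time at every time, while the groups of Cyba overlap.

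Ncf4 (ENSMUSG00000071715.11, chr15:78244801-78262580, plus strand) encodes p40phox, which binds a phosphoinositide on the phagosome membrane. Untreated libraries held 98.1, 84.9 and 87.4 CPM. At 12 h isotype libraries held 172, 166 and 185 CPM and FcMR libraries 103, 180 and 194 CPM. At 24 h they held 142, 151 and 137 CPM with isotype and 108, 70.0 and 153 CPM with FcMR. At 4 h the values spanned 60.3 to 148 CPM with isotype and 122 to 144 CPM with FcMR, so the groups overlapped at all 3 times. The log2 fold changes of Ncf4 over isotype were 0.33 ± 0.28, -0.13 ± 0.28 and -0.38 ± 0.28, none of them called (adjusted p = 0.477, 0.839 and 0.4). Corrected for GC content they were 0.34, -0.06 and -0.32, again not called. Without both libraries out of title order the 4 h value was 0.67 (adjusted p = 0.0485) and the 12 h value 0.10 (adjusted p = 0.881). Against untreated cells Ncf4 rose by 1.93-fold with isotype at 12 h (adjusted p = 0.0114) and by 1.76-fold with FcMR at 12 h (adjusted p = 0.0228). The call with FcMR was lost without FcMR 12 h replicate 2 or 3 (0.74 and 0.67 on the log2 scale, adjusted p = 0.0628 and 0.0851) and without untreated replicate 2 or 3 (0.78 and 0.80, adjusted p = 0.0688 and 0.063). Under the GC correction Ncf4 was also called above untreated with isotype at 24 h (0.74, adjusted p = 0.00099, against 0.67, adjusted p = 0.0651, without it). The same held with FcMR at 4 h (0.74, adjusted p = 0.000905, against 0.56, adjusted p = 0.113) and at 24 h (0.43, adjusted p = 0.0339, against 0.29, adjusted p = 0.413).

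Rac2 (ENSMUSG00000033220.6, chr15:78559167-78572783, minus strand) encodes the blood-cell GTPase that switches the oxidase on. It was 295, 259 and 248 CPM in untreated cells and 117, 91.1 and 153 CPM with isotype for 4 h. FcMR for 4 h gave 193, 176 and 147 CPM. At 12 h the libraries held 247, 233 and 228 CPM with isotype and 219, 339 and 330 CPM with FcMR, and at 24 h 218, 224 and 216 CPM with isotype and 229, 155 and 304 CPM with FcMR. The 6 libraries at 4 h were below all untreated libraries.

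Rac2 was the one member called lower than untreated in the fit of all libraries. It was lower than untreated at 4 h with isotype by 1.15 on the log2 scale (-1.15 ± 0.22, a 2.21-fold fall, adjusted p = 0.000411) and with FcMR by 0.63 (-0.63 ± 0.21, 1.55-fold, adjusted p = 0.0201). The call with FcMR was lost without FcMR 4 h replicate 3 or untreated replicate 1 (-0.50 and -0.56, adjusted p = 0.0913 and 0.0751), and with the GC correction (-0.20, adjusted p = 0.175). With isotype the GC-corrected value was -0.63 and was called (adjusted p = 0.000402). Over isotype, Rac2 changed by 0.51 ± 0.21, 0.33 ± 0.21 and 0.06 ± 0.21 (adjusted p = 0.111, 0.372 and 0.893). With the GC correction the first 2 of these were called, at 0.43 and 0.57 (adjusted p = 0.0135 and 0.00149), and the third was not (0.25, adjusted p = 0.144). The 4 h value was called without isotype replicate 3 (0.73, adjusted p = 0.0306) and without both libraries out of title order (0.73, adjusted p = 0.0134), whose absence left the 12 h value uncalled (0.50, adjusted p = 0.0914). Rac2 with isotype at 12 h, at -0.18 against untreated (adjusted p = 0.538), was called lower with the GC correction (-0.40, adjusted p = 0.00993). The GC tilt thus moved with this result, and its part was tested only through the correction.

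Sod1 (ENSMUSG00000022982.9, chr16:90220754-90226329, plus strand), the copper-zinc enzyme of the cytosol, was highest at 24 h in both arms, and the arms overlapped at each time. Untreated libraries held 94.5, 70.3 and 71.4 CPM. At 4 h the range was 76.0 to 105 CPM with isotype and 77.7 to 87.3 CPM with FcMR, and at 12 h it was 92.4 to 122 CPM and 82.2 to 109 CPM. At 24 h isotype libraries held 140, 140 and 132 CPM and FcMR libraries 139, 151 and 160 CPM, above all other libraries. Isotype-treated cells exceeded untreated ones by 1.39-fold at 12 h (adjusted p = 0.0108) and 1.75-fold at 24 h (adjusted p = 0.000145), and FcMR-treated cells by 1.90-fold at 24 h (adjusted p = 2.48e-05). The 12 h call with isotype was lost without untreated replicate 2 or 3 (0.40 and 0.41 on the log2 scale, adjusted p = 0.0592 and 0.0549). With FcMR at 12 h the difference from untreated, 0.30 (adjusted p = 0.0856), was called without FcMR 12 h replicate 1 (0.43, adjusted p = 0.0206), without untreated replicate 1 (0.45, adjusted p = 0.0159) and without both libraries out of title order (0.43, adjusted p = 0.0132). Over isotype the log2 fold changes were -0.12 ± 0.14, -0.17 ± 0.14 and 0.12 ± 0.14 (adjusted p = 0.615, 0.499 and 0.612). They were -0.06, -0.16 and 0.12 with the GC correction, and 0.00 and -0.07 at 4 and 12 h without both libraries out of title order, none called.

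Sod2 (ENSMUSG00000006818.4, chr17:13006846-13040063, plus strand) encodes the manganese enzyme of the mitochondrial matrix. It held 153, 153 and 167 CPM in untreated cells. With isotype it was 472, 464 and 515 CPM at 4 h, 446, 495 and 537 CPM at 12 h, and 172, 190 and 211 CPM at 24 h. With FcMR it was 734, 783 and 773 CPM at 4 h, 1101, 1041 and 1145 CPM at 12 h, and 833, 894 and 885 CPM at 24 h. With isotype, Sod2 was thus high at 4 and 12 h and near the untreated level at 24 h, while the 9 FcMR libraries lay between 734 and 1145 CPM. Neighbouring groups in the order of means did not overlap, except isotype at 4 h (484 ± 27.6, SD, n = 3) and at 12 h (493 ± 45.3). In Sod2 the 2 libraries out of title order stood with the groups their titles give, at 1101 CPM (FcMR 12 h) and 515 CPM (isotype 4 h).

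The log2 effect of FcMR on Sod2 (± SE) was 0.66 ± 0.085, then 1.15 ± 0.085 and finally 2.19 ± 0.088 at the last time, and the edgeR adjusted p was 2.94e-05, 4.34e-08 and 1.13e-11. All 3 calls held without any single library, and the GC-corrected values were 0.59, 1.30 and 2.33. Without both libraries out of title order, Sod2 was at 0.71 at 4 h and 1.15 at 12 h (adjusted p = 5.46e-05 and 1.74e-07). When the effects at the 3 times were compared in a joint test, Sod2 alone among the members was called (adjusted p = 9.72e-07), in a background of 11% of the genes tested (1484 of 13468). The effect at 24 h exceeded that at 4 h by 1.53. The isotype level at 24 h was 0.28 ± 0.085 above untreated (1.21-fold, adjusted p = 0.0127), after 3.07-fold at 4 h and 3.13-fold at 12 h (adjusted p = 1.02e-10 and 7.02e-11). The FcMR level was 4.85-, 6.96- and 5.53-fold above untreated (adjusted p = 5.91e-13, 6.37e-14 and 3.31e-13).

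In the same joint test, the effect on Cybb grew from 4 to 24 h by 0.45 without passing (adjusted p = 0.193), and that on Ncf1 by 0.21 (adjusted p = 0.551). With the GC correction both were called (Cybb 0.18, adjusted p = 0.00209, and Ncf1 0.31, adjusted p = 0.00693). Without both libraries out of title order Cybb was called too, with a change of 0.56 from 4 to 24 h (adjusted p = 0.0167). So was Cyba, whose effect fell by 1.36 between 4 and 24 h (-1.36, adjusted p = 0.0483).

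**Figure D3:**
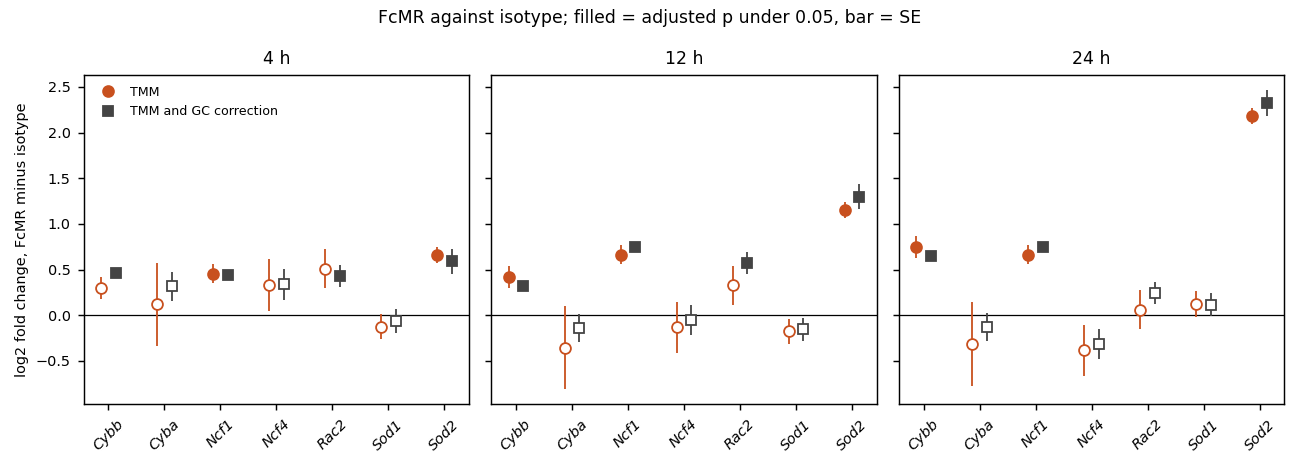
Log2 fold change of FcMR over isotype (vertical axis) for each member (horizontal axis), in a panel each for 4, 12 and 24 h, from the TMM-scaled fit (circles) and with the GC correction (squares). Bars are 1 standard error and filled symbols have an adjusted p under 0.05; Sod2 climbs from 0.66 to 2.19, Ncf1 is filled throughout, and Cybb at 4 h and Rac2 at 4 and 12 h are filled with the GC correction only.

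The ratio of Sod2 counts to Sod1 counts within a library, which is not corrected for transcript length and so only compares groups, was 2.04 ± 0.378 (SD, n = 3) in untreated cells. It was 5.42 ± 0.688, 4.54 ± 0.253 and 1.40 ± 0.191 with isotype at 4, 12 and 24 h, and 9.24 ± 0.62, 11.5 ± 1.67 and 5.83 ± 0.25 with FcMR. The ratio of mitochondrial to cytosolic dismutase transcripts was thus above its isotype counterpart in every FcMR library at each time. Counts of Cybb per count of Cyba ran from 1.22 to 2.29 in untreated libraries and from 2.49 to 17.4 in the isotype 4 h libraries, a spread within 1 group that moves with the GC tilt.

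**Figure D4:**
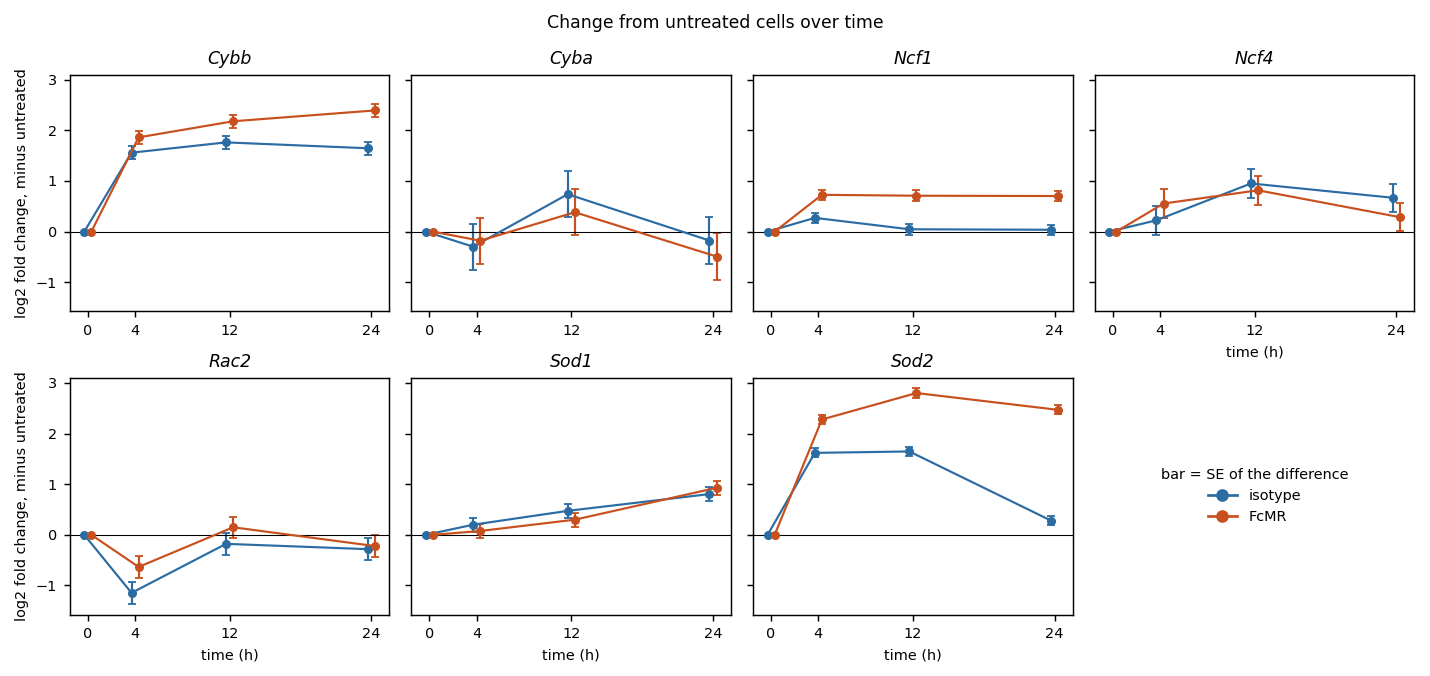
Log2 fold change from untreated cells (vertical axis) of each member against time in hours (horizontal axis) for FcMR and isotype, with bars of 1 standard error and untreated set to 0 at 0 h. The Sod2 curves separate most at 24 h, at 0.28 with isotype and 2.47 with FcMR, and Rac2 is lowest at 4 h in both arms.

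The members' median log2 fold change of FcMR over isotype was 0.33, 0.33 and 0.12 at 4, 12 and 24 h, against -0.07, -0.02 and 0.01 over all genes. With isotype against untreated, 4, 4 and 3 members were called, in backgrounds of 35.6%, 41.6% and 42.2%. With FcMR against untreated, 4 members were called at each time, in backgrounds of 48.2%, 48.1% and 51.4%. Many genes changed against untreated, so these counts are read against high backgrounds.

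The partners of the oxidase were read from a list of 10 genes, all tested. Cybc1, a chaperone needed for gp91phox and p22phox to accumulate, was lower with FcMR at 4 h (-0.32, adjusted p = 0.00283) and higher at 12 h (0.51, adjusted p = 2.53e-05) and 24 h (0.84, adjusted p = 4.89e-08). Arhgdib was higher at 24 h (0.48, adjusted p = 0.000649). In all, 0, 1 and 2 of the 10 were called higher and 1, 0 and 0 lower, with list medians of -0.01, 0.08 and 0.14. The share called over all genes was 17.7%, 16.1% and 20.9%. With the GC correction 2, 4 and 4 partners were called higher and 1, 0 and 0 lower, in backgrounds of 27.9%, 25.0% and 30.0%. The added calls were Arhgdia (0.50) and Prex1 (0.40) at 4 h, Arhgdia (0.33), Arhgdib (0.27) and Vav1 (0.26) at 12 h, and Prex1 (0.56) and Hvcn1 (0.42) at 24 h. Against untreated, 35.6%, 41.6% and 42.2% of all genes were called with isotype, in either direction. Of the partners, 3, 6 and 2 were higher there and 1, 2 and 2 lower. Among the higher were Vav1, an exchange factor for Rac (0.59, 0.88 and 0.77 at the 3 times), and Hvcn1, the proton channel that balances the oxidase's charge (0.94 and 1.40 at 4 and 12 h). Rac1 was lower at 12 and 24 h (-0.49 and -0.38).

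The genes of superoxide and peroxide handling were read from a list of 15, all tested. Against isotype 1, 1 and 5 were called, all higher in this fit, where 8.62%, 8.61% and 11.4% of all genes were called higher. Txnrd1, the cytosolic thioredoxin reductase, was called at all 3 times (0.33, 0.32 and 0.57, adjusted p = 0.0303, 0.0359 and 0.000432). At 24 h it was joined by Prdx6 (0.86), Txn1 (0.45), Cat (catalase, 0.44) and Prdx1 (0.39). Txn1 encodes thioredoxin, and the others encode enzymes that remove peroxides. The list medians were 0.01, 0.07 and 0.28. Corrected for GC content, 3, 3 and 7 were called higher and 0, 1 and 2 lower, in backgrounds of 27.9%, 25.0% and 30.0%. The lower ones were Gpx1, a glutathione peroxidase, at 12 h (-0.85, adjusted p = 0.000522) and 24 h (-0.44, adjusted p = 0.0453), and Txn2, the mitochondrial thioredoxin, at 24 h (-0.42, adjusted p = 0.0349). With isotype against untreated, 35.6%, 41.6% and 42.2% of all genes were called in either direction. The list of 15 had 6, 7 and 7 genes higher and 0, 0 and 1 lower there. Prdx1 was higher by 2.02, 2.45 and 2.51 on the log2 scale and Cat by 1.09, 1.30 and 1.24. Of 9 genes for other NADPH oxidases and their partners, 4 were in the table and 1, Noxo1, was tested, without a call against isotype. The 4 summed to between 0.723 and 4.04 CPM per library, without TMM scaling.

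**Figure D5:**
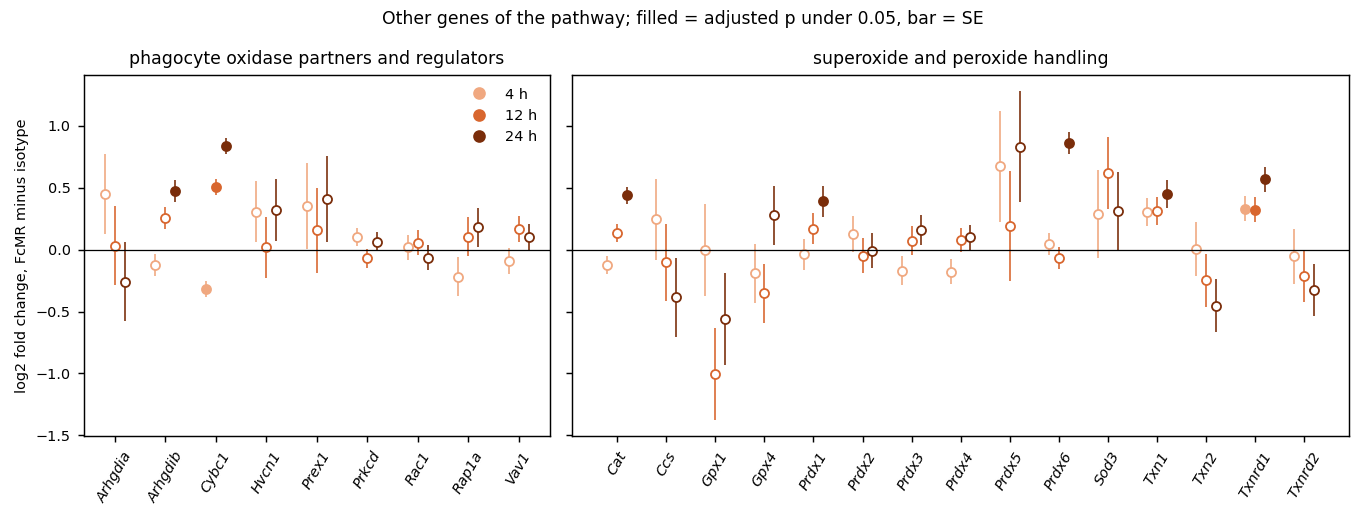
Log2 fold change of FcMR over isotype (vertical axis) for 9 of the 10 oxidase partners and the genes of superoxide and peroxide handling (horizontal axis), with a shade each for 4, 12 and 24 h, bars of 1 standard error, and filled points for an adjusted p under 0.05. Cybc1 goes from -0.32 at 4 h to 0.84 at 24 h, and 5 handling genes are filled at 24 h.

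Among 8587 genes at a sufficient level, the 2 most like each member over the 21 libraries were taken by Pearson correlation of log2 CPM, as a description. They share library depth and GC tilt with the member. Sod2 was most like Tma16 (r = 0.985) and Acsl1 (0.981), whose FcMR effects were 0.54, 1.25 and 2.27, and 0.95, 1.55 and 3.30. Cybb was most like Esd (0.985) and Chpt1 (0.981), and Cyba like Myh9 (0.981) and Atp6v0c (0.98). Ncf1 was most like Nupr1 (0.943) and Snx18 (0.933), Ncf4 like Anapc2 (0.966) and Llgl1 (0.955), Rac2 like Ccnd3 (0.919) and Copg1 (0.903), and Sod1 like Mrps36 (0.915) and Aga (0.897). Between members, deviations from the group means ran opposite for Cybb and Rac2 (r = -0.961), Ncf4 (-0.941) and Cyba (-0.9), and together for Ncf4 and Rac2 (0.941) and for Cyba and Ncf4 (0.932), over libraries that share the tilt described above.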

How the data were processed

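Gene expression was measured by RNA-seq in 21 libraries of 7 groups, assigned from the titles, 3 libraries a group. Per the labels' protocols, TruSeq RNA v2 libraries were sequenced as 75 bp single-end reads. CASAVA 1.8.2, kallisto 0.44.0 and DESeq2 are named in the submitters' processing notes with builds mm10 and GRCm38. The annotation the authors used is not given in the sources used here. The authors deposited estimated counts per gene, already whole numbers, so rounding changed none, although the planned test assumed plain counts. The authors also deposited a normalized signal, which is the estimated count divided by a factor per gene and library, and it served as an alternative only. Of 23250 Ensembl IDs, 23206 matched GENCODE M21 without version and 21250 with it. Estimated counts can shift reads between near-identical genes.

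Counts were scaled by TMM and tested in edgeR 4.0.16 (under R 4.3.3) by its quasi-likelihood method in 1 fit of all libraries, over 13468 genes kept by filterByExpr (minimum count 10), and called at a Benjamini-Hochberg adjusted p under 0.05 over all of them. This fit was tested on simulated data, where estimates were unbiased but part of the smaller changes drawn was missed, more so by the joint test over time. The criteria of that test were revised after its first outcome was seen. The simulated counts had the same spread for every gene, changes in a single group and no GC tilt. They therefore do not bear on bias from the tilt. Alternatives were RLE factors, 2 other filters, DESeq2 1.42.0, limma 3.58.1 on log2 CPM and on the deposited signal (pseudocount 1), a replicate block, a GC correction (lowess, span 0.3), both together, fits of the compared groups only, and leaving out libraries. Replicate counts differed by more than sampling noise in each pair (chi-square per degree of freedom 3.09 to 73.2), so all libraries were counted. All members are named in every group, the listed pathway genes are named where called or counted (1 of them is counted but not reported here by name), and genes of like pattern are the 2 with the highest correlation among those with a mean log2 CPM of at least 3. Members, lists and markers were chosen with earlier results of these data known.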

Additional observations from a re-analysis of the deposited data

Results flagged for a closer look

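The FcMR effect on Sod2 differed between times by the test of that difference itself. The edgeR joint test of the effects at the 3 times gave an adjusted p of 9.72e-07 (3 libraries a group). The log2 fold change over isotype grew by 1.53 from 4 h to 24 h. Over those hours the isotype mean went from 484 to 191 CPM and the FcMR mean from 763 to 871 CPM.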

How the results depend on the processing

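Over 1274 recomputed values of the members, the 770 that did not leave out 1 replicate kept direction and side of the threshold in 710 cases, passed it newly in 45, lost it in 12 and reversed in 3. Leaving out 1 replicate left 483 as they were, gained 5 calls, lost 16 and reversed 0. Not counted as reversed are 22 uncalled values that changed sign. The reversals were Cyba with FcMR against untreated at 4 h, 0.39 with the GC correction and 0.39 with the replicate block and GC correction together, and Rac2 with FcMR against untreated at 24 h, 0.26 with both. The members called with FcMR against isotype at 4 h, 2 in the report, were 4 with DESeq2, 4 with the GC correction, 4 with the replicate block and GC correction, 5 without both libraries out of title order, 1 with only the groups compared, and 2 to 3 without single replicates. With isotype against untreated at 24 h, 3 became 5 with only the groups compared. In the joint test over time, 1 became 3 with the GC correction, with block and GC correction, and without both libraries. The cause was not tested. For the counts with DESeq2 and without both libraries, and for the 24 h count, calls over all genes are not given here. In those, a change in the members cannot be told apart from a general change in calls. Over all genes, FcMR against isotype at 4 h went from 2390 calls to 868 with only the groups compared, 3756 with the GC correction and 3948 with block and GC correction, at 12 h from 2169 to 3373 and 3580 with those 2 corrections, isotype against untreated at 4 h from 4792 to 2881, and the joint test from 1484 to 925 without the filter, 3216 with block and GC correction and 973 to 2294 without single replicates. Omitting the filter moved the median of all genes by -0.104 and 0.119 in the 4 h comparisons. Same-numbered libraries shared only a number (mean correlation of deviations -0.0708, 0.106 and 0.0138 in FcMR against isotype at 4, 12 and 24 h). With the replicate block alone, 2, 3 and 3 members were called against isotype, 3, 4 and 3 for isotype and 4, 4 and 4 for FcMR against untreated, and 1 in the joint test. Over all genes, the block gave 2541, 2290 and 2911 calls against isotype at 4, 12 and 24 h. It gave 5072, 5753 and 5849 for isotype against untreated, 6607, 6581 and 7116 for FcMR against untreated, and 1620 in the joint test. No member had fewer than 334 counts in a library, and the standard error of Cyba with FcMR against isotype at 4 h went from 0.457 to 0.155 with the GC correction at the same number of libraries.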

Other observations

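The factor by which the deposited normalized table divides each estimated count ran from 0.432 to 5.46 over the libraries for Sod1, Sod2 and Rac2 alike, and from 0.431 to 5.46 for Cyba. For Ncf4 it ran from 0.288 to 6.45.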
